A study of Rattus norvegicus with 98 samples.

Results

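The nucleus accumbens core (NaCcore in the labels) was represented by 4 peak lists out of 94 in the series, chosen by their titles: 2 from rats given fluoxetine (FT) and 2 from control rats (Sham). H3K27ac, acetylated lysine in the tail of histone H3, was mapped by chromatin immunoprecipitation and sequencing in micropunched brain tissue. All rats were male Long-Evans animals aged 2 months in the labels, about the age at which the paper assigned them to treatment. FT rats received fluoxetine at 18 mg per kg per day in the drinking water for 6 weeks, and Sham rats drank water without the drug. Each replicate combined tissue of several animals, so a list describes a pool and not a single rat, and a punch holds every cell type of the core. The Sham and FT samples of a replicate number were processed in parallel.

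Fluoxetine blocks the serotonin transporter and thereby prolongs the action of released serotonin. The core of the nucleus accumbens lies in the ventral striatum, is built mainly of GABAergic medium spiny neurons, receives dopamine input from the ventral tegmental area and cortical and amygdalar glutamate input, and links motivation to action. H3K27ac is deposited by the acetyltransferases p300 and CBP at active promoters and enhancers, and a peak is a stretch of genome where the mark is enriched over its surroundings. A list of peaks therefore gives the places and widths of acetylated stretches, while the amount of acetylation is given only through scores. The question addressed was which of these stretches differ between treated and control animals. Peaks are given by position on the Rn5 rat genome. Gene models on Rn5 were not used here, so no locus carries a gene name and the tissue was not checked against marker genes.

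Sham replicate 1 held 28154 peaks, Sham replicate 2 held 36508, FT replicate 1 held 47275 and FT replicate 2 held 48063. FT lists thus exceeded Sham lists without overlap, and the FT lists were nearly the same length while the Sham lists were not. Peak number was 32331 ± 5907 in Sham and 47669 ± 557 in FT (mean ± SD, n = 2 each), a log2 ratio of 0.57 or 1.49-fold. The ratio was 0.75 on the log2 scale in the pair numbered 1 and 0.40 in the pair numbered 2, against 0.37 between the Sham lists and 0.02 between the FT lists. The exact two-sided permutation test over the 4 lists gave p = 0.33, which is the smallest that 2 lists against 2 can give, so no measure of whole lists could pass 0.05. Reads per peak and depth are unknown from such lists, so treatment and depth or enrichment of a library cannot be told apart as sources of a longer list.

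The bases covered by peaks differed more than their number. Sham replicate 1 covered 39.6 Mb, Sham replicate 2 covered 55.3 Mb, FT replicate 1 covered 78.6 Mb and FT replicate 2 covered 80.5 Mb. Coverage in FT was 1.70-fold that in Sham (log2 ratio 0.77, exact permutation p = 0.33). The median −log10 p-value of a peak was higher in the longer FT lists than in the Sham lists, at 8.83 and 10.04 in Sham and 13.4 and 13.3 in FT. The share of peaks at the upper limit of 200 of that score was 0.703% and 1.53% in Sham and 4.16% and 4.55% in FT.

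**Figure D1:**
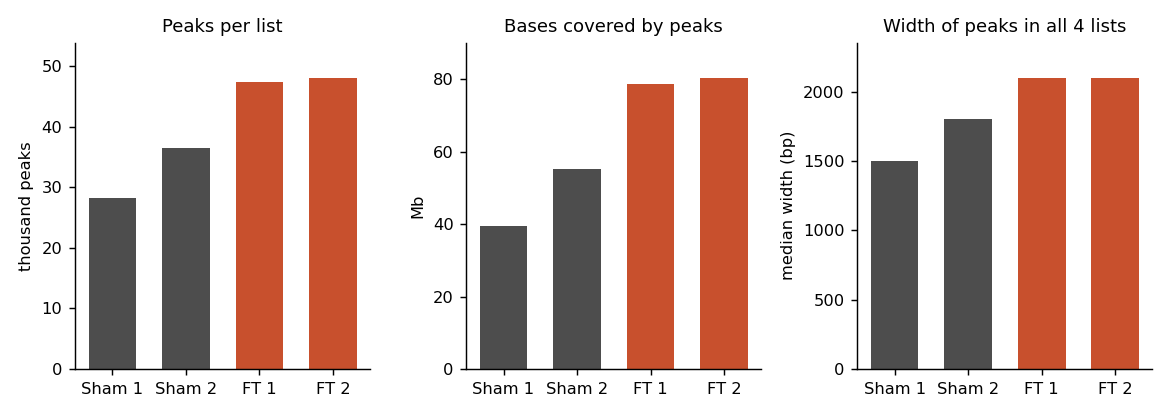
Bars give the value of each NaCcore list: the number of peaks (in units of 1000), the bases covered (Mb) and the median width (bp) of the peaks present once in all 4 lists; Sham lists are grey and FT lists orange, with 1 bar per replicate and no error bar. Both FT bars stand above both Sham bars in each panel, and median widths run from 1500 bp in Sham replicate 1 to 2100 bp in both FT lists.

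Similarity between lists was measured before the comparison as the Jaccard index, the windows occupied in both lists divided by those occupied in either. Windows were 1 kb long and counted as occupied where peaks covered at least 50% of them. On full lists the index was 0.737 between the FT lists and 0.552 between the Sham lists, so no list was a copy of another. Between treatments it was 0.449 and 0.439 for Sham replicate 1 and 0.589 and 0.575 for Sham replicate 2. Sham replicate 2 was therefore closer to both FT lists than to the other Sham list. With all lists of the series cut to the same 19378 peaks, the nearest list from another region was Sham replicate 1 of NaCshell, the accumbens shell, for Sham replicate 1 (0.618). It was a list of BNST, the bed nucleus of the stria terminalis, for Sham replicate 2 (0.651), FT replicate 1 (0.713) and FT replicate 2 (0.698), above the lowest index of these lists within NaCcore (0.636, 0.614 and 0.606).

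Peaks present in both treatments were wider after FT. There were 44704 elements, merged stretches that peaks of 2 or more of the 4 lists cover, and 23061 of them held exactly 1 peak in every list. The median width of these shared peaks was 1500 and 1800 bp in the Sham lists, replicate 1 first, and 2100 bp in each of the FT lists. The log2 ratio of FT to Sham was 0.35 (exact permutation p = 0.33), and the FT and Sham medians did not overlap. Of the 23061 elements, 18415 (79.9%) were wider in both FT lists than in both Sham lists and 53 (0.23%) were narrower in both. The same count for the lists divided by replicate number gave 832 and 120 elements, and for the crossed division (Sham replicate 1 with FT replicate 2, against Sham replicate 2 with FT replicate 1) 800 and 123.

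The replicates of Sham differed in width as well. Sham replicate 2 was wider than Sham replicate 1 at 78.4% of the shared peaks, by a median of 200 bp. FT replicate 1 was wider than Sham replicate 1 at 97.4% of them and wider than Sham replicate 2 at 86.9%, by medians of 500 bp and 300 bp. FT replicate 2 was wider than FT replicate 1 at 37.8% and narrower at 30.9%, with a median difference of 0 bp. On the log2 scale the median step was 0.19 from Sham replicate 1 to Sham replicate 2 and 0.18 and 0.19 from Sham replicate 2 to FT replicate 1 and FT replicate 2, so the Sham lists differed from each other by as much as the wider of them differed from FT.

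Shared peaks were then ranked by Norm-tag-count, a score the lists give for each peak and whose definition is not given there, and cut into 4 equal parts, and medians were wider in FT in all 4. In the lowest part the median width ran from 1100 bp in Sham replicate 1 and 1350 bp in Sham replicate 2 to 1700 bp in each FT list. In the highest part it ran from 2100 bp and 2200 bp in the Sham lists to 2400 bp and 2500 bp in the FT lists. The median gain, FT mean minus Sham mean, was, from the lowest part to the highest, 500, 450, 350 and 250 bp.

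Windows that separated the treatments were those occupied in both lists of one treatment and in neither of the other. On full lists, 16747 windows were higher in FT, 17.2% of the 97454 windows occupied in any of the 4 lists, and 302 were higher in Sham, 0.31%. All 4 lists occupied 32991 windows. A further 17810 windows were occupied in both FT lists and in 1 Sham list, and that list was Sham replicate 2 at 14729 of them (82.7%). Dividing the same lists by replicate number gave 1945 separating windows in both directions together, and the crossed division gave 2072, against 17049 for treatment. The treatment division was the highest of the 3, which is the most this design can show (exact permutation p = 0.33).

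List length was then made equal by keeping the 28154 peaks with the highest maxScore, the highest value of the peak caller's filter within a peak. These lists hold all peaks of Sham replicate 1, 77.1% of Sham replicate 2, 59.6% of FT replicate 1 and 58.6% of FT replicate 2. On equal-size lists 7904 windows were higher in FT (10.8% of 73063) and 585 were higher in Sham (0.801%). The other divisions gave 1985 and 2013 windows, so treatment again gave the highest of the 3 counts (exact permutation p = 0.33). Equal numbers did not mean equal coverage, which was 39.6 and 48.1 Mb in Sham and 57.3 and 57.8 Mb in FT. With every list cut to the coverage of the smallest, FT had 3347 separating windows and Sham 2095, so the share of separating windows that were higher in FT went from 93.1% to 61.5%. With peaks counted only by the window that holds their centre, FT had 2293 separating windows and Sham 1204, and the other divisions gave 2180 and 2238 windows in both directions together.

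**Figure D2:**
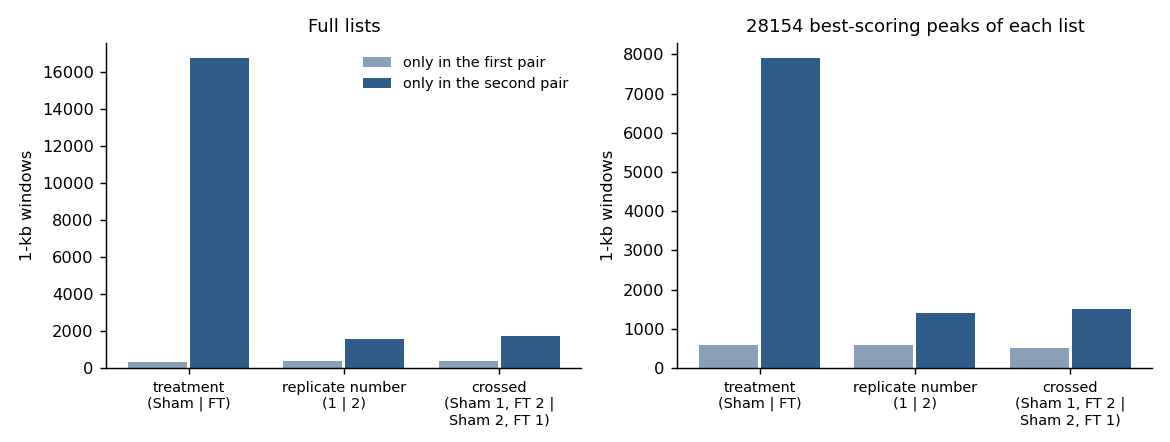
Bars count the 1-kb windows occupied in both lists of one pair and in neither of the other, for the 3 ways of dividing the 4 NaCcore lists into pairs, on full lists (left) and on the 28154 best-scoring peaks of each list (right). The bar of windows found only in FT, 16747 and 7904, is the highest in each panel, and no other bar passes 1705.

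Windows higher in FT lay both in peaks that Sham also had and in peaks that it did not. On full lists 8319 of the 16747 windows (49.7%) were in an FT peak that overlapped a Sham peak, and 8428 were in FT peaks with no Sham peak. Counted over all peaks in place of windows, 73.2% of those of FT replicate 1 and 71.9% of those of FT replicate 2 overlapped a Sham peak. For the 7904 windows higher in FT on equal-size lists, with overlap still judged between peaks of the full lists, the split was 6828 (86.4%) against 1076. The 585 windows higher in Sham on equal-size lists were also mostly in peaks that the full FT lists shared, at 531 of 585. So were 91.4% of all peaks of Sham replicate 1 and 92.9% of those of Sham replicate 2. At full length 344 of the 585 were occupied in both FT lists and 140 in 1 of them. Of the 7904 windows higher in FT, 802 were occupied in a Sham list at full length and 7102 separated the treatments on both kinds of list.

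Peaks found in one treatment alone were narrow and of low score. Of the 44704 elements, 8490 (19.0%) had a peak in both FT lists and none in Sham, with a median width of 1000 bp, and 330 (0.738%) had a peak in both Sham lists and none in FT, with a median width of 700 bp. Elements with a peak in all 4 lists had a median width of 2000 bp. The FT-only elements lay at the median Norm-tag-count percentile of 35.1 in FT replicate 1 and 19.5 in FT replicate 2, and 0.483% and 0.471% of them were in the top 10% of peaks. Sham-only elements lay at 4.47 and 2.75, near the bottom of their lists. In the lists themselves, FT peaks with no Sham peak had a median −log10 p of 5.74 and 5.75, against 22.4 and 22.6 for FT peaks shared with Sham.

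The rank of changed windows followed from this. Windows higher in FT on full lists had a median Norm-tag-count percentile of 35.1 in FT replicate 1 and 47.9 in FT replicate 2, below the 56.6 and 67.1 of all windows those lists occupied. On equal-size lists the medians of changed windows were 56.6 and 67.1, against 70.1 and 67.1 for all windows that the equal-size lists of FT replicate 1 and FT replicate 2 occupied. Windows higher in Sham on full lists had medians of 4.47 and 2.75 in the Sham lists, against 64.6 and 56.5 for all windows there.

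Changed windows mostly formed loci of 1 window, though loci of all occupied windows are not given here for comparison. The 16747 windows formed 15100 loci when adjoining windows were joined, 89.3% of them of 1 window, and none was longer than 3 windows. On full lists 42.3% of the windows higher in FT adjoined a window occupied in Sham, 23.1% lay 2 to 10 kb away and 34.6% lay further. On equal-size lists 67.5% adjoined one. Windows higher in Sham lay further from FT windows: 17.9% of the full-list windows and 4.96% of the equal-size ones adjoined one, while 65.6% and 64.8% lay beyond 10 kb. Distances on equal-size lists ran only to windows that the cut lists of the other treatment occupied. Of the 585 equal-size windows higher in Sham, 344 were themselves occupied in both FT lists at full length and 140 in 1 of them.

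**Figure D3:**
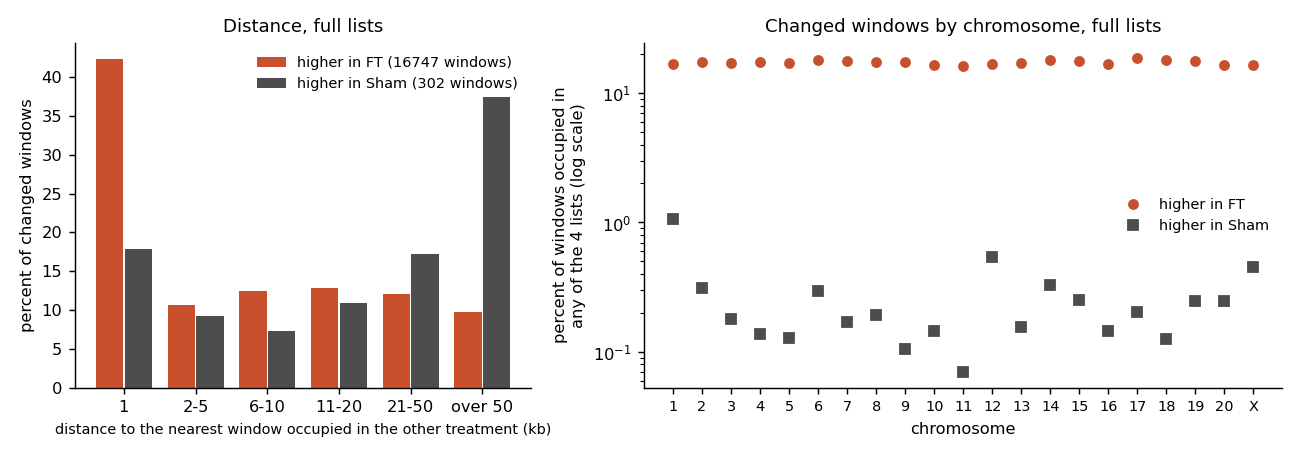
The left panel gives the percent of changed windows of the full lists by their distance (kb) to the nearest window occupied in the other treatment, and the right panel gives the windows higher in FT (orange circles) or in Sham (grey squares) on each chromosome as a percent of its windows occupied in any of the 4 lists, on a log scale. Circles lie between 16.2% and 18.5% on all chromosomes, while the square of chromosome 1 stands at 1.06% against a median of 0.193%.

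By chromosome, the windows higher in FT were spread evenly and those higher in Sham were not. The former made up 16.2% (chromosome 11) to 18.5% (chromosome 17) of the occupied windows of a chromosome on full lists. Of the 302 windows higher in Sham, 119 (39.4%) were on chromosome 1, which holds 11.5% of all occupied windows. On equal-size lists it was 119 of 585 (20.3%), against 11.6% of all windows. Without chromosome 1, 183 windows were higher in Sham and 14860 in FT. Chromosome 1 carried 12.6% of the peaks of Sham replicate 1, 11.7% of Sham replicate 2, 11.1% of FT replicate 1 and 11.2% of FT replicate 2. The 119 windows of the full lists, not the same set as the 119 of the equal-size lists, were occupied more often in short lists of other regions than in long ones. The median was 52.5% of them in the 18 Sham lists shorter than Sham replicate 2 (the Sham list of HB, the habenula, left out) and 8.40% in the 26 longer Sham lists. The HB list occupied 77.3% of them. The part of list length in this result was not tested.

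Of the 5 windows with the highest Norm-tag-count among those higher in FT, 3 were edges of peaks that all 4 lists had. At chr1:228141001-228142000 the peak ended at 228141401 and 228141456 in the Sham lists, replicate 1 first, and at 228141817 and 228141703 in the FT lists. Norm-tag-count there was 16 and 22 in Sham and 33 and 32 in FT, and −log10 p was 157 in Sham replicate 1 and 200 in the other lists. All 4 pools thus had a strong peak, with a right edge further out in FT. At chr10:108798001-108799000 the peak ended at 108798113 and 108798016 in Sham and at 108799115 and 108799072 in FT, with Norm-tag-counts of 15 and 20 against 30 and 26. At chr3:13749001-13750000 the left edge decided: 13749803 and 13749546 in Sham, 13749384 and 13749403 in FT.

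The remaining 2 of the 5 strongest FT windows were empty in Sham replicate 1 and covered over 300 and 200 bp in Sham replicate 2. At chr12:40769001-40770000 no Sham replicate 1 peak reached the window and Sham replicate 2 had a peak of 300 bp (−log10 p 4.99), while FT replicate 1 and FT replicate 2 had peaks of 3600 and 3800 bp at the limit of 200. The Norm-tag-count of that Sham replicate 2 peak was nevertheless 18, in a list whose highest was 24, against 30 and 27 in FT. At chr3:35190001-35191000 both FT lists had 1 peak of 4500 bp, Sham replicate 2 had separate peaks of 2200 and 1700 bp on the sides of the window, and Sham replicate 1 had none in it. Further along the same FT peaks, chr3:35192001-35193000 was the strongest window higher in Sham: the Sham peaks ended at 35192902 and 35192645 and the FT peaks at 35192383 and 35192402. Norm-tag-count at that peak was 17 and 22 in Sham and 32 and 31 in FT, so a window counted as higher in Sham belonged to a peak with the higher score in FT.

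Most of the other strongest windows higher in Sham had the same form. At chr3:169039001-169040000 the peak covered 598 and 555 bp of the window in Sham and 417 and 398 bp in FT, and its Norm-tag-count was 7 and 10 against 16 and 15. At chr12:1170001-1171000 it covered 577 and 517 bp in Sham and 499 and 494 bp in FT, with Norm-tag-counts of 6 and 9 against 13 and 11. At chr6:141064001-141065000 it covered 561 and 690 bp in Sham and 93 and 127 bp in FT. At chr1:211792001-211793000 it covered 501 and 556 bp in Sham, 417 bp in FT replicate 1 and none in FT replicate 2. Norm-tag-count there was 10 and 13 in Sham and 21 in FT replicate 1, while FT replicate 2 gave no score.

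Among the longest loci, 1 had no Sham peak at all. At chr8:33368001-33371000 no Sham list had a peak, and FT replicate 1 and FT replicate 2 had peaks of 6400 and 2400 bp with −log10 p of 13.8 and 10.7. This locus was active in 5 of the 20 other regions. At chr1:45730001-45733000 the FT peaks were 4900 and 5000 bp wide, where Sham replicate 1 had 1 peak of 2200 bp and Sham replicate 2 had peaks of 2300 and 1200 bp. This locus was active in 1 of the 20 other regions. At chr7:98681001-98684000 the FT peaks were 4200 bp in both lists and the Sham peaks 1700 and 2400 bp, and the locus was active in 17 of the 20 other regions. The longest locus higher in Sham, chr1:228217001-228219000, held peaks of 1900 and 2100 bp in Sham and of 800 and 600 bp in FT, with −log10 p between 4.49 and 12.5. The FT peaks covered 800 and 597 bp of the last window of that locus, so both full FT lists occupied it. There too the equal-size cut removed the FT peaks. At chr1:197557001-197559000 and chr15:33294001-33296000 all 4 lists had a peak of 1000 to 1400 bp, with −log10 p between 6.59 and 13.0, and the equal-size cut removed those of FT.

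Of the 3 widest elements, 2 were of like width in all 4 lists. At chr3:2462046-2468102 the peak was 6100, 6000, 5800 and 5900 bp wide, Sham lists first and replicate 1 before 2, and Norm-tag-count was 12 and 15 in Sham and 25 and 22 in FT. At chr18:70529615-70535314 the widths were 5400, 5200, 5800 and 5700 bp and the scores 8, 9, 16 and 13. At chr13:54208297-54214248 both Sham lists had 2 peaks (1900 and 2900 bp, and 2400 and 2900 bp) where the FT lists had 1 of 5900 and 6000 bp. All 3 were active in each of the 20 other regions.

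The scores of shared peaks were compared on elements with a peak in all 4 lists. As deposited, Norm-tag-count was higher in both FT lists than in both Sham lists at 18186 of 23267 such elements (78.2%) and lower in both at 26. The score depends on the library, so it was quantile-normalised on the log2 scale and tested with limma. At a Benjamini-Hochberg adjusted p below 0.05, 186 elements were higher in FT (0.799%) and 227 were higher in Sham (0.976%). With the replicate number as a block, the pairing that the parallel processing gives, no element passed in limma, with 2418 at an unadjusted p below 0.05 and a smallest adjusted p of 0.323. Without FT replicate 2 none passed either (3033 unadjusted), and leaving out any other list gave 4070 to 5042. Without normalisation 3304 elements were higher in FT and 3 in Sham.

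These calls followed the whole-number steps of the score. The 413 elements called took only 24 different combinations of 4 scores, and at 393 of them the replicates of each treatment differed by less than 0.05 after normalisation, against 11.1% of all elements tested. The 5 elements of lowest p in FT all had Norm-tag-counts of 5 and 6 in Sham and 12 and 11 in FT, a normalised log2 difference of 0.39 (SE 0.0083, limma adjusted p = 0.0171), and 6 elements shared these values. They are chr1:88433218-88435503, chr1:219492618-219494401, chr2:82223702-82226301, chr2:125886602-125889357 and chr12:50598984-50601901. Of the elements called higher in Sham, 199 of 227 had higher deposited scores in both FT lists.

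The 5 elements of lowest p in the Sham direction included 3 whose deposited scores overlapped or were lower in FT. At chr7:142182202-142185801 Norm-tag-count was 8 and 10 in Sham and 9 and 8 in FT (normalised log2 difference -0.75, limma adjusted p = 0.0171). At chr5:65427472-65432093 it was 12 and 16 in Sham and 11 and 10 in FT (-1.09), and at chr5:142423085-142427984 it was 12 and 16 in Sham and 12 and 11 in FT (-0.97). No list of FT exceeded the higher Sham list there. At chr1:91387504-91389817 and chr2:226443302-226445557 the scores were 7 and 9 in Sham and 11 and 10 in FT (-0.30). With maxScore in place of Norm-tag-count, limma called 12 elements, all higher in Sham, and none of the 5 named here in either direction.

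Most changed windows were active in other regions, where active means occupied in at least 2 of the 4 lists of a region, among the 20 other regions with 4 lists. Of the 7904 windows higher in FT on equal-size lists 7250 (91.7%) were active in another region, against 93.7% of all windows occupied in an equal-size NaCcore list. On full lists it was 14706 of 16747 (87.8%), against 89.6% of all windows. Windows higher in Sham were active elsewhere at 274 of 302 (90.7%) on full and 567 of 585 (96.9%) on equal-size lists. Counting only both Sham lists of a region, 75.3% of the equal-size and 71.4% of the full-list FT windows were active in another region without fluoxetine, against 85.0% of all windows of the equal-size lists and 78.7% of those of the full lists.

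The windows higher in FT were active in fewer regions than shared ones. The median number of other regions was 10 for windows higher in FT on equal-size lists and 9 on full lists. On full lists it was 13 for all windows occupied in a NaCcore list and 20 for those occupied in all 4. Of the windows higher in FT on full lists 6.17% were active in all 20 other regions, against 27.5% of all windows, and 2041 were active in none. They were most often active in BLA, the basolateral amygdala (68.4% of the equal-size windows), BNST (65.4%) and LH, the lateral hypothalamus (58.5%), and least often in PAG, the periaqueductal grey (33.98%). The full-list windows higher in FT gave the same order, with 61.6% in BLA, 57.1% in BNST, 54.7% in LH and 27.5% in PAG. So did all windows occupied in a full NaCcore list, with 69.0% in BLA, 67.9% in BNST, 66.0% in LH and 43.6% in PAG. These windows were required to be absent in Sham, and a window seen in 1 FT list alone was active elsewhere at 78.4% (FT replicate 1) and 74.8% (FT replicate 2).

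**Figure D4:**
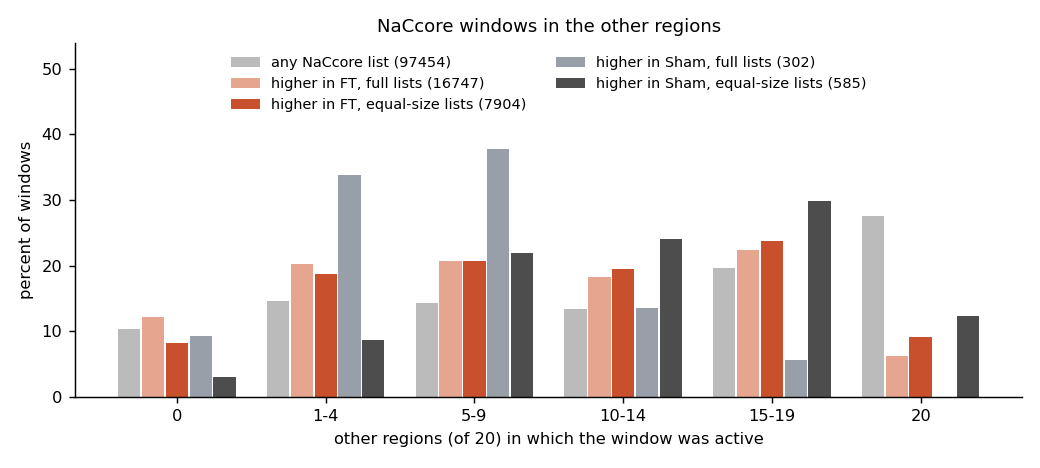
Bars give the percent of windows by the number of the 20 other regions in which they were active, for all windows occupied in a full NaCcore list and for windows higher in FT or in Sham on full and equal-size lists, with the number of windows in the legend. At 20 regions the bar of all windows stands at 27.5% and those of the windows higher in FT at 6.17% and 9.06%.

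Occupancy of these windows in other regions, counted on their full lists, also differed between treatments. The log2 ratio of peak number, FT over Sham, was above 0 in 19 of 21 regions. It was -0.12 in venDG and -0.014 in InsularCortex, the insular cortex. The windows higher in FT on equal-size lists were occupied more in FT than in Sham lists in 19 of 20 other regions, by a median of 14.4 percentage points and up to 40.7 in MS, the medial septum, with -3.88 in venDG, the ventral dentate gyrus. All windows occupied in a full NaCcore list were also occupied more in FT in 19 of the 20, by a median of 9.77 points. For the windows higher in FT on full lists the median was 13.8 points. The 302 windows higher in Sham on full lists went the other way: they were occupied less in FT in all 20 regions, by a median of -10.3 points and between -0.828 (venDG) and -43.4 (PLC, the prelimbic cortex). On equal-size NaCcore lists the windows higher in Sham did not keep that direction, being occupied more in FT in 15 of 20. Of the 302, 119 were on chromosome 1, and short lists of other regions occupied those 119 more often than long ones. No test was made across regions at these windows, and the part of list length in these differences was not tested.

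The accumbens shell, the neighbour of the core, did not show the treatment difference in both of its pairs. Of the equal-size windows higher in FT, Sham replicate 1 of NaCshell occupied 18.7%, Sham replicate 2 16.04%, FT replicate 1 18.2% and FT replicate 2 75.6%. FT replicate 1 of NaCshell thus lay with its Sham lists, and it was the shortest list of that region, with 24429 peaks against 49521 in FT replicate 2. Of the 302 windows higher in Sham, the NaCshell lists occupied 49.0%, 55.3%, 40.4% and 12.6% in the same order. Of all 97454 windows occupied in a full NaCcore list, they occupied 40.5%, 35.8%, 32.9% and 71.0%, again in that order. FT replicate 2, the longest NaCshell list, thus stood apart from the other 3 at both sets of changed windows and at all windows.

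Windows of the core were rarely without activity elsewhere. Of 30837 windows occupied in all 4 equal-size NaCcore lists, 38 were active in none of the 20 other regions, and 87 were active in exactly 1, which was NaCshell for 31. None was absent from all 90 other lists. The 5 loci found in the fewest other lists were each found in 1 of the 90, an FT list in every case. At chr3:162987001-162988000 the peak was 1000 bp wide in Sham replicate 1, 3500 bp in Sham replicate 2 and 3800 bp in both FT lists, with Norm-tag-counts of 4, 5, 8 and 7. At chr4:183176001-183177000 the widths were 1100, 1600, 2300 and 2200 bp and the scores 3, 3, 5 and 4. The loci chr4:210763001-210764000, chr14:4065001-4066000 and chr15:103366001-103367000 had Norm-tag-counts of 3 in each Sham list and of 4 or 5 in FT.

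The size of the difference in NaCcore lay within the range of the other regions. The log2 ratio of peak number was 0.57, the fourth highest of 21, against a mean of 0.35 (SD 0.31, n = 20) and a range of -0.12 (venDG) to 1.10 (PLC). The percent of occupied windows higher in FT on full lists was 17.2 in NaCcore, also the fourth highest, against a mean of 9.45 (SD 7.96) and a range of 1.21 (venDG) to 31.5 (PLC). The exact two-sided permutation test over the 21 regions gave p = 0.429 for peak number, 0.429 for covered length and 0.286 for windows (each adjusted p = 0.429 over 3 measures), where the smallest possible is 0.0476. In 13 of the 21 regions, NaCcore among them, neither Sham list was as long as an FT list, and in none was the reverse seen. Sham replicate 1 and Sham replicate 2 of NaCcore ranked 38 and 27 in length among 47 Sham lists, and FT replicate 1 and FT replicate 2 ranked 34 and 28 among 47 FT lists. The regions share animals and library processing and are not independent of each other.

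**Figure D5:**
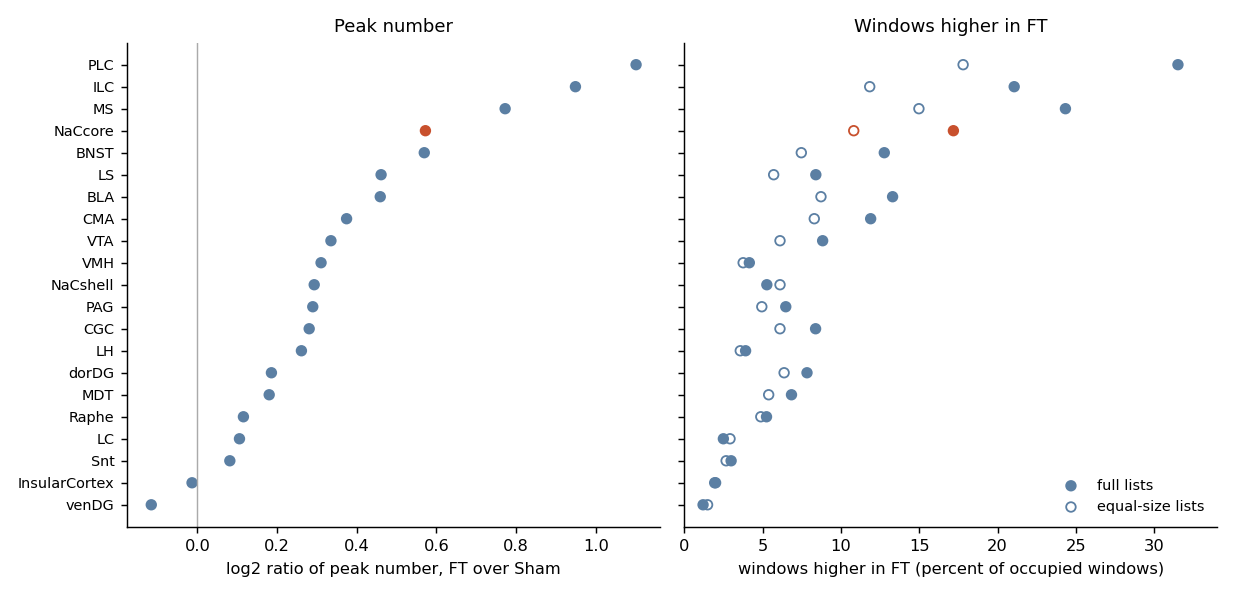
Each row is a region with 4 lists, ordered by the log2 ratio of peak number (FT over Sham, left panel), and the right panel gives its windows higher in FT as a percent of occupied windows on full lists (filled) and on lists cut to the shortest of the region (open). NaCcore, in orange, stands at 0.57 on the left and at 17.2% and 10.8% on the right, with PLC, ILC and MS above it in both panels.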

How the data were processed

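H3K27ac ChIP-seq peak lists of NaCcore (2 Sham, 2 FT) were analysed beside those of 24 other regions. The authors aligned reads to Rn5 (BWA and rn5 are named in the submitters' processing notes, without a version) and ran DFilter on every library by itself. The authors deposited maxScore and Norm-tag-count, each a score and neither a read count, the second in whole numbers. The −log10 p-value of each peak, from 4 to 200, was deposited as the authors' peak caller made it. False discovery rates, a percent in the deposited files, are 0 throughout. Depth is unknown, so no counting interval was computed. The study tested reads over consensus peaks, which the lists do not hold.

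Starts were read as counting from 0, and positions are printed counting from 1. Peaks off chromosomes 1 to 20 and X were dropped (1019 peaks in 2 lists of other regions). Percentiles are ranks within a list, ties sharing their mean rank. Single values were compared by exact two-sided permutation and normalised log2 scores with limma 3.58.1 (R 4.3.3, trend, Benjamini-Hochberg, 0.05). Window and element functions were tested on simulated data in Python 3.11.15. The replicate number marks parallel processing, according to the study's methods. Over 73063 windows of the equal-size lists, the replicate difference (2 minus 1) of Sham and that of FT had a correlation of -0.0043, so same-numbered lists did not deviate together. The input libraries entered no comparison.

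Named loci were, in each direction, the 5 separating on full and equal-size lists with the highest lower percentile of Norm-tag-count, the 3 longest on equal-size lists and the 5 elements of lowest limma p; the 3 widest elements; and the 5 loci of all 4 equal-size lists found in the fewest other lists. The comparisons, loci rules and lists were chosen with earlier results of these data known. Marker genes listed for the tissue were not used, since they need an annotation of Rn5. The alternatives tried are given in the closing section.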

Additional observations from a re-analysis of the deposited data

How the results depend on the processing

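The log2 ratios of peak number, covered length, median width and shared width kept their direction under every alternative run, and none could pass 0.05. Without 1 list each they ranged over 0.38 to 0.76, 0.52 to 1.01, 0.18 to 0.28 and 0.25 to 0.51. The replicate block left the first 3 at 0.57, 0.77 and 0.23 (exact sign-flip p = 0.5 over 2 pairs) and took the limma calls from 413 to 0.

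Counts of windows moved with the definition of a window, which by construction changes how many windows there are. Without 1 list each, which relaxes the condition, windows higher in FT were 19828 to 31476 on full and 10535 to 16820 on equal-size lists, and windows higher in Sham were 517 to 3779 and 1011 to 4437. In the same order as FT full, FT equal-size, Sham full and Sham equal-size, windows of 5 kb gave 1186, 1119, 1 and 2. Full cover gave 8495, 6449, 54 and 71. For Sham, any overlap of 1 bp gave 614 and 1251, and a −log10 p of at least 10 gave 14 on full lists. For FT on equal-size lists that threshold gave 2885, the 10000 best-scoring peaks 2250, the same covered length 3347 (Sham 2095) and peak centres 2293 (Sham 1204). Leaving out chromosome 1, chosen after seeing the data, gave 183 Sham windows on full lists. FT exceeded Sham under all of these.

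The share of equal-size FT windows active in another region was 91.7% (93.7% of all windows) and 87.8% to 95.0% without 1 list each. With the share of all windows of the same setting in parentheses, it was 95.0% (97.9%) at the stricter threshold, 92.7% (94.3%) at any overlap, 89.7% (91.7%) at full cover, 88.3% (88.6%) in 5-kb windows, 97.1% (98.6%) for 10000 peaks, 94.3% (95.5%) at the same covered length, 87.8% (89.6%) on full lists and 75.3% (85.0%) for both Sham lists. FT windows lay above all windows without Sham replicate 2, at 95.0% (93.7%), for peak centres, at 93.8% (90.1%), and for 1 list of any region, at 98.3% (98.1%). FT windows lay below the base in the other settings.

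Limma calls ran from 0 to 5042 without 1 list each, with the lone list assumed to vary like the others. They were 0 with median scaling (2264 at an unadjusted p below 0.05), per kb of peak (3502) and with absent peaks set to 0 (4556), 3307 without normalisation, 1041 at the stricter threshold and 1013 among the 16441 elements left without those of lowest score. Alternatives chosen after seeing the data gave 12 with maxScore and 150 with maxScore and the block. The cause of these shifts was not tested.

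NaCcore exceeded the mean of the other regions in windows higher in FT by 7.74 percentage points for full and 4.26 for equal-size lists (exact permutation p = 0.286 and 0.33). The part of list length in differences of this kind was not tested. With 2 pools per treatment and no read counts, changes of acetylation within a peak of fixed width were not measurable from occupancy.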

Other observations

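Chromosome 1 held a larger share of the peaks in short lists of the other regions as well. It was 11.5% to 14.3% (median 12.1%) in the 18 Sham lists shorter than Sham replicate 2 of NaCcore, the Sham list of HB left out, and 11.1% to 11.9% (median 11.4%) in the 26 longer Sham lists. The Sham list of HB, also short with 31913 peaks, stood above this range at 17.85%. The 2 short FT lists stood at 11.8% and 12.1%, and the 43 longer FT lists at 10.99% to 12.2% (median 11.2%). At the 183 windows higher in Sham on the other chromosomes, short Sham lists occupied a median of 37.4%, longer Sham lists 27.3% and longer FT lists 21.9%.

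Windows found in a single NaCcore list were active elsewhere to differing extents. Of 2072 windows occupied in Sham replicate 1 alone 47.0% were active in another region, and of 3477 in Sham replicate 2 alone 66.1%. The windows of FT replicate 1 alone (8847) and FT replicate 2 alone (10760) stood at 78.4% and 74.8%.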
